A study of Rattus norvegicus with 12 samples.

Results

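Amino acid transporters carry amino acids across the plasma membrane and the membranes of lysosomes, and the genes considered here are those whose symbols on the array begin with Slc1a, Slc3a, Slc6a, Slc7a, Slc36a, Slc38a or Slc43a. Of 14503 genes with a single symbol on the array, 55 belonged to these 7 families, and each was read by 1 probe set. They were examined in endothelial cells (ECs) of the ductus arteriosus (DA), the fetal artery that joins the pulmonary artery to the aorta and closes after birth. One of the 55, Slc7a6os, shares the prefix but is no transporter: it is the gene next to Slc7a6.

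Some of these carriers move glutamate or small neutral amino acids together with sodium (Slc1a and Slc38a), some move neurotransmitters, taurine, creatine or proline with sodium and chloride (Slc6a), and some move amino acids with protons (Slc36a) or by facilitated diffusion (Slc43a). The Slc7a family splits into cationic amino acid carriers, which work alone, and light chains, which reach the cell surface only when bound to a heavy chain of the Slc3a family. Several of the light chains are exchangers that export one amino acid for each one they import, so that they depend on other carriers to set the amino acid level of the cell. ECs are known to take up arginine, the substrate of nitric oxide synthase, and glutamine through such carriers.

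ECs were isolated by FACS, as cells with CD31 and without CD45 on their surface, from pooled vessels of Wistar rats, and their RNA was hybridized to 12 arrays, 3 in each of 4 groups. The DA F group held ECs of the DA and the aorta F group ECs of the descending aorta of fetuses before breathing. These fetuses were at full term, on day 21 of gestation. The DA N and aorta N groups held ECs of the same vessels of neonates 30 min after caesarean delivery. None of the animals carried an altered gene or received a drug, each array holds the RNA of many litters, and litters may be shared by the DA and the aorta of a stage, so that the p-values measure the spread between pools.

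All signals below are log2 signals as deposited, and the array medians ran from 5.63 to 5.76. The sorted cells carried endothelial marker signal at a mean of 10.04 to 10.24 on DA arrays and 10.08 to 10.35 on aortic arrays, and 0 of the 11 endothelial markers tested passed the test between the vessels. The mean signal of 9 smooth muscle markers was 7.21 to 7.69 on DA arrays and 6.92 to 7.01 on aortic arrays. Of these 9 markers, 4 were higher in the DA over both stages, against 3.19% of all tested probe sets, and 1 was lower, against 4.93%. Among them the smooth muscle actin gene Actg2 averaged 8.25 in DA F and 6.79 in aorta F, and 8.50 in DA N and 6.93 in aorta N. Actg2 had the largest difference of the 9, at 1.52 over both stages. Mylk was lower in the DA (-0.45, limma adjusted p = 0.00659), and Smtn and Lmod1 differed by 0 and 0.05. Among other markers, the mesothelial gene Msln (0.56, adjusted p = 0.00244) and the myelin gene Mbp (0.52, adjusted p = 0.0244) were higher in the DA over both stages and the cardiac troponin gene Tnnt2 was lower (-0.70, adjusted p = 0.00107), each as 1 called gene of the 3 mesothelial, 4 neural and 6 cardiomyocyte markers tested. Of 7 fibroblast markers tested 1 was higher and 2 were lower, and of 5 leukocyte markers tested 0 were higher and 1 was lower, while Ptprc, which encodes CD45, lay below the detection limit used here and was not tested. In marker lists this short, a count of 1 or 2 is not set apart from the shares of all tested probe sets. The part of these marker differences in those of the transporters was not tested. In RNA from a cell population, fewer cells of a type cannot be told apart from less RNA in each cell.

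Transporters were tested if their mean signal was no lower than that of the lys spike, a bacterial RNA added at a low amount, which averaged 4.44 over the 12 arrays. This kept 42 members and left out 13. Slc6a3, the dopamine transporter, lay just inside at a mean of 4.44 and the GABA transporter Slc6a11 next at 4.51, while the cationic carrier Slc7a3 lay just outside at 4.41 and Slc36a2 next at 4.35. The spike itself varied between 3.41 and 6.17 from array to array, so that only 21 of the 42 stood at or above it on each of the 12 arrays. Among the 13 left out were the cystine carrier light chain Slc7a11, at a mean of 2.56, and Slc3a1, the second heavy chain, at 4.33. The other members left out, at means of 2.37 to 4.35, were Slc6a5, Slc6a13, Slc6a14, Slc6a15, Slc6a18, Slc7a9, Slc7a12, Slc7a13, Slc36a2 and Slc38a5. Members left out are given with their signals and no test. Of the called members, Slc6a6 and Slc1a3 stood at or above the spike on 10 of the 12 arrays and the other 9 on all 12.

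Transporters differed between the vessels in both directions. In a fit of all 18690 tested probe sets with limma, a call being a Benjamini-Hochberg adjusted p under 0.05, 4 of 42 members (9.52%) were higher in ECs of the DA in F, against 1.49% of all probe sets, and 4 (9.52%) were lower, against 2.28%. In N, 6 members (14.3%) were higher, against 1.26% of all probe sets, and 4 (9.52%) were lower, against 1.87%. Over both stages 6 (14.3%) were higher, against 3.19%, and 5 (11.9%) were lower, against 4.93%. Of the 18690 probe sets, 11899 carry a single symbol, as each member does, and shares among those alone were not taken.

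The 6 members higher over both stages were Slc38a1, Slc7a8, Slc43a1, Slc43a3, Slc1a4 and Slc7a6, and the 5 lower were Slc6a6, Slc7a7, Slc7a1, Slc6a20a and Slc1a3. The same 6 had all 6 DA arrays above all 6 aortic arrays, as did 2.91% of all probe sets, and the same 5 had all 6 DA arrays below all 6 aortic arrays, as did 4.07%. The log2 difference ranged from -1.13 to 2.82 over the 42 members, with an SD of 0.65 and a median of 0.07. Over all tested probe sets the SD was 0.28 and the median 0. The members thus spread more widely than all probe sets, with no test made of that spread.

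**Figure D1:**
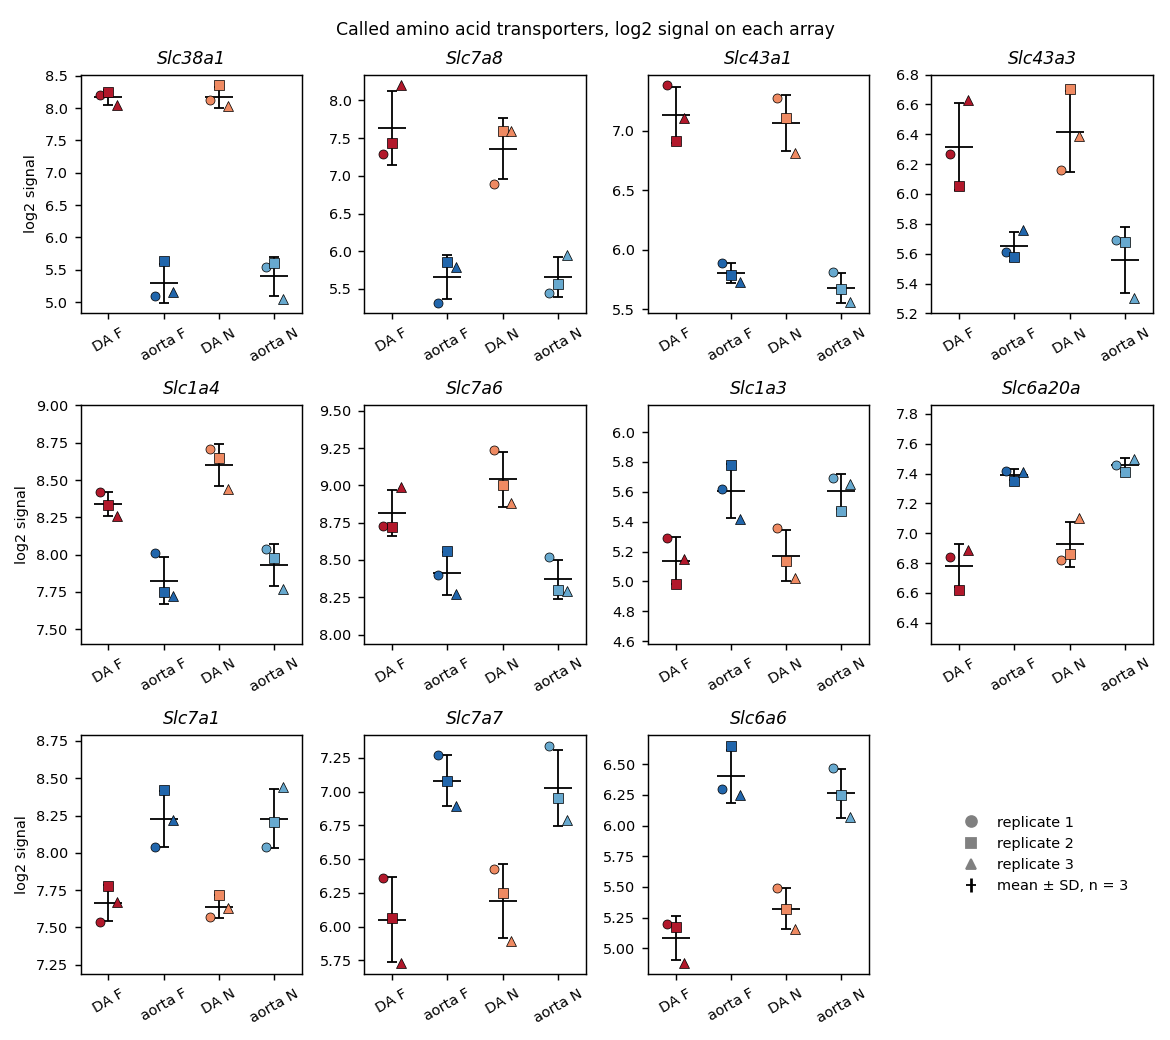
Log2 signal of the 11 called members on each of the 12 arrays (vertical axis) by group (DA F, aorta F, DA N, aorta N), with symbols for the replicate number and bars for the mean ± SD of 3 arrays. In each panel the 6 DA arrays lie on one side of the 6 aortic arrays, with the widest gap for Slc38a1, where the DA arrays lie at 8.03 to 8.35 and the aortic arrays at 5.05 to 5.63.

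Arrays of replicate number 1 deviated together, as did those of number 3, while those of number 2 did so only weakly (r of 0.102 to 0.301). A paired fit, in which replicate numbers formed blocks, called 18 members over both stages (42.9%, against 17.8% of all probe sets), 12 in F (28.6%, against 10.4%) and 11 in N (26.2%, against 7.27%). The 11 members called over both stages without the block were among the 18. The 7 added ones were Slc1a2, Slc1a5, Slc1a6, Slc6a8 and Slc38a7, higher in the DA, and Slc36a1 and Slc36a4, lower in the DA. Of these, Slc1a2 stood at or above the lys spike on only 6 of the 12 arrays and Slc1a6 on 8, and the others on all 12.

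Cells short of amino acids raise the transcription of some carriers through the factor ATF4, which binds an element with the core TGATGNAA. The 250 bases before the annotated start of each gene, taken from RefSeq (build GRCr8), were searched for this motif on both strands. A promoter was matched for 43 of the 55 members, 34 of the tested ones and 10 of the called ones, and Slc43a3 was the called member without one. The motif was found in 3.58% of the 27457 genes in the promoter table and in 3 members (6.98% of those matched), each of which was called between the vessels. The motif is a match of letters and no test of binding was made. The promoters are shown because they carry the motif, in capitals, and because they belong to carriers that moved in opposite directions. They read 5′ to 3′ along the strand of the gene. Slc38a1 and Slc1a4 were higher in the DA and Slc7a1 was lower. The motif began 142 bases before the start of Slc38a1 (chr7:129681402-129681651, minus strand), 235 bases before that of Slc1a4 (chr14:98761563-98761812, minus strand, the motif lying on the opposite strand and thus printed as its reverse complement) and 30 bases before that of Slc7a1 (chr12:11664238-11664487, plus strand).
Slc38a1: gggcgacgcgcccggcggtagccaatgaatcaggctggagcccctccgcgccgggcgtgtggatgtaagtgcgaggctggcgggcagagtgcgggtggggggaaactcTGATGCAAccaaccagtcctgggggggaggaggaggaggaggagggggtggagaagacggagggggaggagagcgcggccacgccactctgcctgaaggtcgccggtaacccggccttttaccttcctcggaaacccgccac
Slc1a4: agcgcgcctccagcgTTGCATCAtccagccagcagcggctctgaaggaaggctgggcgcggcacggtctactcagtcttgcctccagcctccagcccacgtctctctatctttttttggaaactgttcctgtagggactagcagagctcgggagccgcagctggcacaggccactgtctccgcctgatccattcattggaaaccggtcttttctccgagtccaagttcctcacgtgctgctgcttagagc
Slc7a1: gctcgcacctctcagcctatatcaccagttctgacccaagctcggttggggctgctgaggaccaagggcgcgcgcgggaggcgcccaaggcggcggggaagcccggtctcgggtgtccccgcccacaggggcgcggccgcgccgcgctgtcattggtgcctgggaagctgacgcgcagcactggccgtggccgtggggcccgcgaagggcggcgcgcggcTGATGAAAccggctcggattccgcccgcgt

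Of the sodium-coupled neutral carriers of the Slc38a family, Slc38a1 showed the largest vessel difference among the 42 members. Slc38a1 imports glutamine and other small neutral amino acids. Its signals were 8.20, 8.25 and 8.04 in DA F and 5.09, 5.63 and 5.15 in aorta F. They were 8.12, 8.35 and 8.03 in DA N and 5.55, 5.60 and 5.05 in aorta N. The lowest DA array stood at 8.03 and the highest aortic array 5.63, and the vessels did not overlap. The difference was 2.87 on the log2 scale in F (7.31-fold, standard error [SE] 0.18, limma adjusted p = 3.78e-06) and 2.77 in N (6.81-fold, SE 0.18, adjusted p = 1.04e-05). Its change between N and F, -0.10 (SE 0.26), lay within a 95% interval of -0.66 to 0.45.

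The next 2 genes on chromosome 7 after Slc38a1, with 0 protein-coding genes between neighbours in RefSeq, belong to the same family. Slc38a2, the carrier of the family whose transcription is best known to respond to amino acid shortage, had signals of 11.44, 11.35 and 11.21 in DA F and 11.79, 11.31 and 11.37 in aorta F, and of 11.59, 11.24 and 11.05 in DA N and 11.72, 11.56 and 11.33 in aorta N. These ranges overlapped, and the difference over both stages, -0.20 (95% interval -0.47 to 0.06), did not pass the test (adjusted p = 0.455). Slc38a4 stood at 4.76 to 5.29 in DA F and 4.86 to 5.12 in aorta F, and at 5.24 to 5.76 in DA N and 4.96 to 5.24 in aorta N. Its difference was 0.07 in F and 0.48 in N (SE 0.18 each, adjusted p = 0.947 and 0.276). No vessel difference was called in these neighbours of Slc38a1.

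The 6 other tested members of the family were not called, with differences of -0.20 to 0.35 over both stages. Slc38a7, a lysosomal carrier that exports glutamine, came closest, with signals of 6.44, 6.31 and 6.83 in DA F and 5.87, 6.14 and 6.20 in aorta F, and of 6.20, 6.30 and 6.37 in DA N and 5.99, 5.93 and 6.22 in aorta N. The vessels overlapped in N and not in F. Its difference over both stages was 0.35 (SE 0.11, adjusted p = 0.0783), and the paired fit called it (adjusted p = 0.00749, with 0.0184 in F and 0.235 in N). Slc38a9, a lysosomal arginine sensor upstream of mTORC1, differed by 0.03 (95% interval -0.21 to 0.27). Slc38a5, a relative of Slc38a3 that carries glutamine and glycine, lay below the spike at a mean of 4.24 and was not tested in the filtered fit, with 4.26 to 4.64 in DA F and 3.77 to 4.25 in aorta F, and 4.37 to 4.94 in DA N and 3.57 to 4.09 in aorta N. With no filter on low signal it was called higher in the DA over both stages.

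Of 6 light chains of the Slc7a family tested, 2 were higher and 1 was lower in the DA over both stages. Slc7a8 (LAT2), an exchanger of large and small neutral amino acids, was higher in the DA. Its signals were 7.29, 7.43 and 8.20 in DA F and 5.32, 5.86 and 5.79 in aorta F, and 6.89, 7.59 and 7.60 in DA N and 5.45, 5.57 and 5.95 in aorta N. The lowest DA array, at 6.89, stood above the highest aortic one, at 5.95. The difference was 1.98 in F (3.95-fold, SE 0.26, adjusted p = 0.000811) and 1.70 in N (3.25-fold, SE 0.26, adjusted p = 0.0028). The DA arrays of this gene spread more than those of most members, with an SD of 0.49 in DA F against a median within-group SD of 0.18 over the tested members.

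Slc7a7 and Slc7a6 encode the light chains y+LAT1 and y+LAT2, which exchange cationic for neutral amino acids with sodium, and they were called in opposite directions. Slc7a7 had signals of 6.36, 6.06 and 5.73 in DA F and 7.27, 7.08 and 6.89 in aorta F, and of 6.43, 6.25 and 5.89 in DA N and 7.34, 6.95 and 6.79 in aorta N. All DA arrays stood below all aortic arrays, with differences of -1.03 in F (SE 0.20, adjusted p = 0.0107) and -0.83 in N (SE 0.20, adjusted p = 0.0451). Slc7a6 had signals of 8.73, 8.72 and 8.99 in DA F and 8.40, 8.56 and 8.27 in aorta F, and of 9.24, 9.0 and 8.88 in DA N and 8.52, 8.30 and 8.29 in aorta N. It was called in N, at 0.67 (SE 0.14, adjusted p = 0.018), but not in F, at 0.40 (adjusted p = 0.172, and 0.0628 in the paired fit), and the difference between the stages, 0.26 (SE 0.20), was not called. In F it was called with the replicate block as a random term (adjusted p = 0.0458) and after quantile normalization (0.0457). Its neighbour Slc7a6os, whose protein is no carrier, differed by 0.14 over both stages (95% interval -0.20 to 0.47). Slc7a7 and Slc7a8 both lie on chromosome 15 with 15 protein-coding genes between them, and their vessel differences had opposite signs.

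The call of Slc7a7 in N rested on several arrays, with adjusted p = 0.139 without DA N replicate 2, 0.173 without DA N replicate 3, 0.19 without aorta N replicate 1 and 0.111 without aorta N replicate 2. It was also lost without DA F replicate 2, aorta F replicate 2 or aorta F replicate 3, at adjusted p between 0.0563 and 0.0741, and in F without DA F replicate 3 (0.0568). With no filter on low signal the call of Slc7a7 in N was lost too (adjusted p = 0.0607). The call of Slc7a6 in N was lost without DA N replicate 1 or 2 or without aorta N replicate 2 or 3, at adjusted p between 0.0684 and 0.0835.

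Slc7a5 (LAT1), which exchanges large neutral amino acids such as leucine for glutamine, was not called. Its signals ran from 10.03 to 10.47 in DA F and 10.18 to 10.53 in aorta F, and from 10.11 to 10.36 in DA N and 10.23 to 10.36 in aorta N. The difference over both stages was -0.09 (95% interval -0.31 to 0.13, adjusted p = 0.781). Slc3a2 (CD98 heavy chain), which binds Slc7a5, Slc7a6, Slc7a7, Slc7a8, Slc7a10 and Slc7a11, stood at 10.73 to 10.98 in DA F and 10.64 to 10.69 in aorta F, and at 10.90 to 10.98 in DA N and 10.60 to 10.84 in aorta N. The DA arrays lay above the aortic arrays within each stage, by 0.21 over both stages (95% interval 0.04 to 0.38), and this did not pass the test (adjusted p = 0.154), nor with the replicate block (0.0578). It passed with the block as a random term (adjusted p = 0.0444) and by the methods' t-test with Benjamini-Hochberg adjustment (0.0271). Slc7a10 differed by -0.10 (95% interval -0.34 to 0.14), and the 6 Slc7a members not called, Slc7a6os included, by -0.10 to 0.14 over both stages.

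The cationic carriers, which import arginine, lysine and ornithine without a heavy chain, included 1 called member. Slc7a1 (CAT-1) had signals of 7.54, 7.78 and 7.67 in DA F and 8.04, 8.42 and 8.22 in aorta F, and of 7.57, 7.72 and 7.63 in DA N and 8.04, 8.21 and 8.44 in aorta N. Each DA array stood below each aortic array, and the differences were -0.56 in F (SE 0.14, adjusted p = 0.0439) and -0.60 in N (SE 0.14, adjusted p = 0.0369). The call in F was lost without any single array other than aorta F replicate 1 and aorta N replicates 1 and 3, at adjusted p up to 0.196. The call in N was lost without any single array other than DA F replicate 1, aorta F replicates 1 and 2 and aorta N replicate 1, at adjusted p up to 0.152, while the call over both stages (-0.58, SE 0.10, adjusted p = 0.00229) was kept without any single array. Both stage calls were also lost after quantile normalization (adjusted p = 0.177 in F and 0.113 in N). They were lost with no filter on low signal as well (0.0719 in F and 0.0591 in N). Slc7a2 (CAT-2) had signals of 10.31 to 10.61 in DA F and 10.40 to 10.47 in aorta F, and of 10.55 to 10.80 in DA N and 10.51 to 10.63 in aorta N. It differed by 0.08 over both stages (95% interval -0.10 to 0.26), and the difference was not called.

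The Slc43a family, facilitated carriers first described for branched-chain and other large neutral amino acids, had 2 of its 3 members called, both higher in the DA. Slc43a1 (LAT3) had signals of 7.38, 6.91 and 7.11 in DA F and 5.89, 5.79 and 5.73 in aorta F, and of 7.27, 7.11 and 6.81 in DA N and 5.81, 5.67 and 5.56 in aorta N. The DA arrays, at 6.81 to 7.38, stood clear of the aortic arrays, at 5.56 to 5.89. The difference was 1.33 in F (2.52-fold, SE 0.15, adjusted p = 0.000234) and 1.38 in N (2.60-fold, SE 0.15, adjusted p = 0.000218).

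Slc43a3, which is known in human cells as a carrier of purine bases rather than amino acids, had signals of 6.27, 6.05 and 6.63 in DA F and 5.61, 5.58 and 5.76 in aorta F, and of 6.16, 6.70 and 6.39 in DA N and 5.69, 5.68 and 5.30 in aorta N. The lowest DA array (6.05) stood above the highest aortic one (5.76). The difference was 0.86 in N (SE 0.18, adjusted p = 0.0206) and 0.67 in F, where it was not called (adjusted p = 0.0679). In F it was called in the paired fit (adjusted p = 0.0315) and with the replicate block as a random term (0.0175). The call in N was lost without DA N replicate 2 or 3 or without aorta N replicate 2 or 3, at adjusted p between 0.0516 and 0.118. Slc43a1 and Slc43a3 lie on chromosome 3 with 1 protein-coding gene between them. Slc43a2 (LAT4) differed by 0.01 (95% interval -0.22 to 0.24) and was not called.

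Among the glutamate and neutral amino acid carriers of the Slc1a family, 1 member was higher and 1 lower in the DA over both stages. Slc1a4 (ASCT1), an exchanger of serine, alanine and cysteine, had signals of 8.42, 8.33 and 8.26 in DA F and 8.01, 7.75 and 7.72 in aorta F, and of 8.71, 8.65 and 8.44 in DA N and 8.04, 7.98 and 7.77 in aorta N. It was higher in the DA by 0.51 in F (SE 0.13, adjusted p = 0.0488) and by 0.67 in N (SE 0.13, adjusted p = 0.0117). The call in F stood close to the threshold and was lost without any single array other than aorta F replicate 1, DA N replicate 3 and aorta N replicate 3, at adjusted p up to 0.184. It was also lost with no filter on low signal (adjusted p = 0.0842) and with the filter at the spike in at least 1 group (0.0535). The call in N was lost without DA N replicate 2 (0.0676) or aorta N replicate 3 (0.0542), while the call over both stages (0.59, SE 0.09, adjusted p = 0.0011) was kept without any single array.

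Slc1a3 (GLAST), a glutamate and aspartate carrier best known from astrocytes, was lower in the DA over both stages, with a log2 difference of -0.45 (SE 0.10, adjusted p = 0.0127). Its signals were 5.29, 4.98 and 5.15 in DA F and 5.62, 5.78 and 5.42 in aorta F, and 5.36, 5.14 and 5.02 in DA N and 5.69, 5.47 and 5.65 in aorta N. All DA arrays lay below all aortic arrays, although neither stage alone passed the test (adjusted p = 0.106 in F and 0.169 in N). The paired fit called both (adjusted p = 0.0246 in F and 0.0448 in N). The 5 members of the family not called differed by -0.13 to 0.37 over both stages. Slc1a5 (ASCT2), the glutamine exchanger that works beside Slc7a5, differed by 0.21 (95% interval -0.01 to 0.42, adjusted p = 0.318, and 0.0334 in the paired fit). Slc1a2, the main glutamate carrier of astrocytes, differed by 0.37 (95% interval 0.13 to 0.62, adjusted p = 0.0654, and 0.00871 in the paired fit), at signals of 4.68 to 5.06 in DA F and 4.31 to 4.55 in aorta F, and of 4.73 to 4.96 in DA N and 4.36 to 4.86 in aorta N. The vessels overlapped in N, and the paired fit called neither stage alone (adjusted p = 0.0523 in F and 0.114 in N). Slc1a2 stood at or above the lys spike on only 6 of the 12 arrays.

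The Slc6a family held 16 members, 11 of them tested, and its 2 called members were both lower in the DA. Slc6a6 (TauT), the taurine transporter, had signals of 5.20, 5.17 and 4.88 in DA F and 6.30, 6.65 and 6.25 in aorta F, and of 5.49, 5.32 and 5.16 in DA N and 6.47, 6.25 and 6.07 in aorta N. The highest DA array (5.49) stood below the lowest aortic one (6.07). The difference was -1.31 in F (0.402-fold, SE 0.16, adjusted p = 0.00036) and -0.94 in N (0.521-fold, SE 0.16, adjusted p = 0.00483). Both calls were kept without any single array.

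Slc6a20a (SIT1), a sodium-coupled carrier of proline and other imino acids, had signals of 6.84, 6.62 and 6.89 in DA F and 7.42, 7.35 and 7.41 in aorta F, and of 6.82, 6.86 and 7.10 in DA N and 7.46, 7.41 and 7.50 in aorta N. The aortic arrays lay close together, with SDs of 0.04 in both groups, and above all DA arrays. The difference was -0.61 in F (SE 0.12, adjusted p = 0.01) and -0.53 in N (SE 0.12, adjusted p = 0.0283). The call in F was lost without DA F replicate 2 (adjusted p = 0.0557). The call in N was lost without DA N replicate 1 or 2 or any of the aorta N replicates, at adjusted p between 0.0835 and 0.149. It was also lost after quantile normalization (adjusted p = 0.0748) and with no filter on low signal (0.052). RefSeq also holds a closely related neighbour, Slc6a20b, and whether the probe set separates the transcripts was not tested.

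Slc6a8, the creatine transporter, had signals of 8.94, 9.06 and 9.19 in DA F and 8.50, 8.79 and 8.97 in aorta F, and of 8.80, 9.05 and 9.31 in DA N and 8.65, 8.86 and 9.13 in aorta N. These ranges overlapped, and the difference was 0.24 over both stages (SE 0.12, adjusted p = 0.347). Within each replicate number the DA array stood above the aortic array at both stages, and the paired fit called it (adjusted p = 0.0197, and 0.0471 in F). Slc6a4, the serotonin transporter, stood at 6.75 to 6.94 in DA F and 6.87 to 7.03 in aorta F, and at 6.76 to 7.28 in DA N and 6.79 to 7.44 in aorta N, and was not called. The remaining tested members of the family, among them the dopamine, noradrenaline and glycine transporters, differed by -0.12 to 0.13 over both stages.

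The proton-coupled Slc36a carriers had 3 of 4 members tested, and 0 were called in the fit without the block. Slc36a1 is known for the export of amino acids from lysosomes. Slc36a4 had signals of 8.31 to 8.49 in DA F and 8.54 to 8.65 in aorta F, and of 8.26 to 8.39 in DA N and 8.46 to 8.66 in aorta N. All 3 DA arrays stood below all 3 aortic arrays at each stage, by -0.23 over both stages (95% interval -0.40 to -0.06, adjusted p = 0.107), and the paired fit called it (adjusted p = 0.0246). Slc36a1 differed by -0.33 (95% interval -0.58 to -0.08, adjusted p = 0.114, and 0.0419 in the paired fit), with 7.05 to 7.65 in DA F and 7.67 to 7.70 in aorta F, and 7.24 to 7.28 in DA N and 7.26 to 7.75 in aorta N. The vessels overlapped in N, and the paired fit called neither stage alone (adjusted p = 0.115 in F and 0.327 in N).

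**Figure D2:**
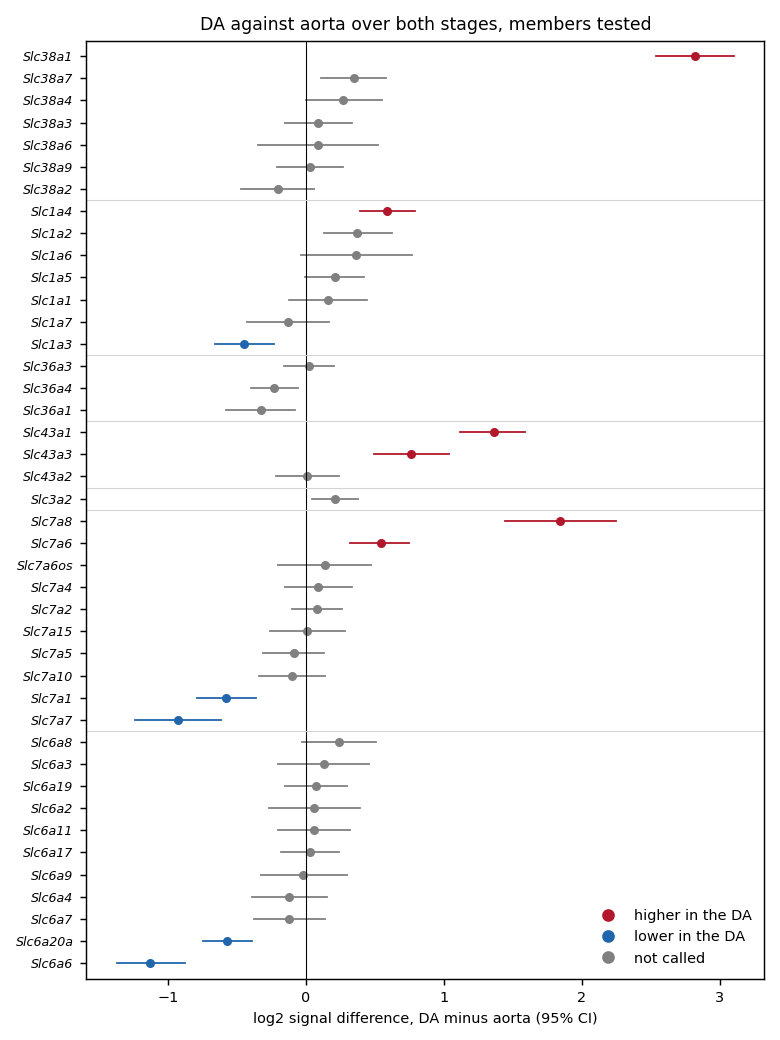
Log2 signal difference of the DA minus the aorta over both stages for the 42 tested members, with 95% confidence intervals (horizontal axis), grouped by family from top to bottom. Red points were called higher and blue points lower in the DA, and Slc38a1 at 2.82 and Slc6a6 at -1.13 form the ends of the range.

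The vessel difference was compared between the stages. 25 of the 42 members had a positive difference in F and 27 in N. No member had a called change of the vessel difference between N and F, as was so for 0% of all probe sets, and at an unadjusted p under 0.05 there were 0 members and 174 probe sets. The change of the called members ranged from -0.28 for Slc7a8 (95% interval -1.09 to 0.53) to 0.37 for Slc6a6 (95% interval -0.11 to 0.86), so that changes of this order were not detectable with 3 arrays a group.

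**Figure D3:**
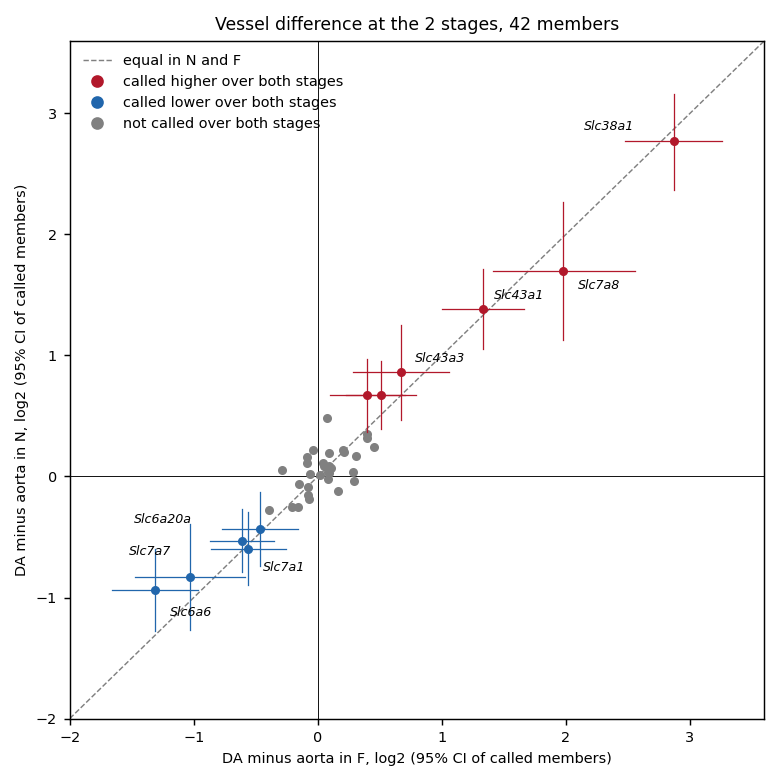
Log2 signal difference of the DA minus the aorta in F (horizontal axis) and in N (vertical axis) for the 42 tested members, with 95% confidence intervals for the 11 members called over both stages. The called members lie on the same side of 0 in both stages, from -1.31 in F and -0.94 in N for Slc6a6 to 2.87 in F and 2.77 in N for Slc38a1.

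Between N and F, that is 30 min after birth, no member was called in either vessel. In the DA 0 of 42 members passed the test, against 0.00535% of all probe sets, and in the aorta 0 of 42, against 0%. At an unadjusted p under 0.05 there was 1 member in the DA (2.38%, against 2.01% of all probe sets) and there were 0 in the aorta (against 1.38%). The methods' t-test with Benjamini-Hochberg adjustment called 0 members in each vessel. The 1 member was Slc38a4, a neutral carrier known as an imprinted gene in mice, with 5.76, 5.76 and 5.24 in DA N and 4.76, 5.29 and 5.24 in DA F, which overlap. It differed by 0.49 (SE 0.18, unadjusted p = 0.018, adjusted p = 1).

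The members next in order in the DA were Slc1a4, at 0.27 (95% interval -0.01 to 0.54), Slc36a3, at -0.22 (-0.47 to 0.04), and Slc7a6, at 0.23 (-0.08 to 0.53). In the aorta they were Slc1a1, a glutamate and cysteine carrier, at 0.27 (95% interval -0.13 to 0.67), Slc7a10, at -0.22 (-0.56 to 0.12), Slc6a4, at 0.25 (-0.14 to 0.63), and Slc38a9, at -0.21 (-0.55 to 0.13). None of these was called. For Slc38a1 the change was 0.01 in the DA (95% interval -0.39 to 0.40) and 0.11 in the aorta (-0.28 to 0.50), which leaves room for changes smaller than those between the vessels.

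**Figure D4:**
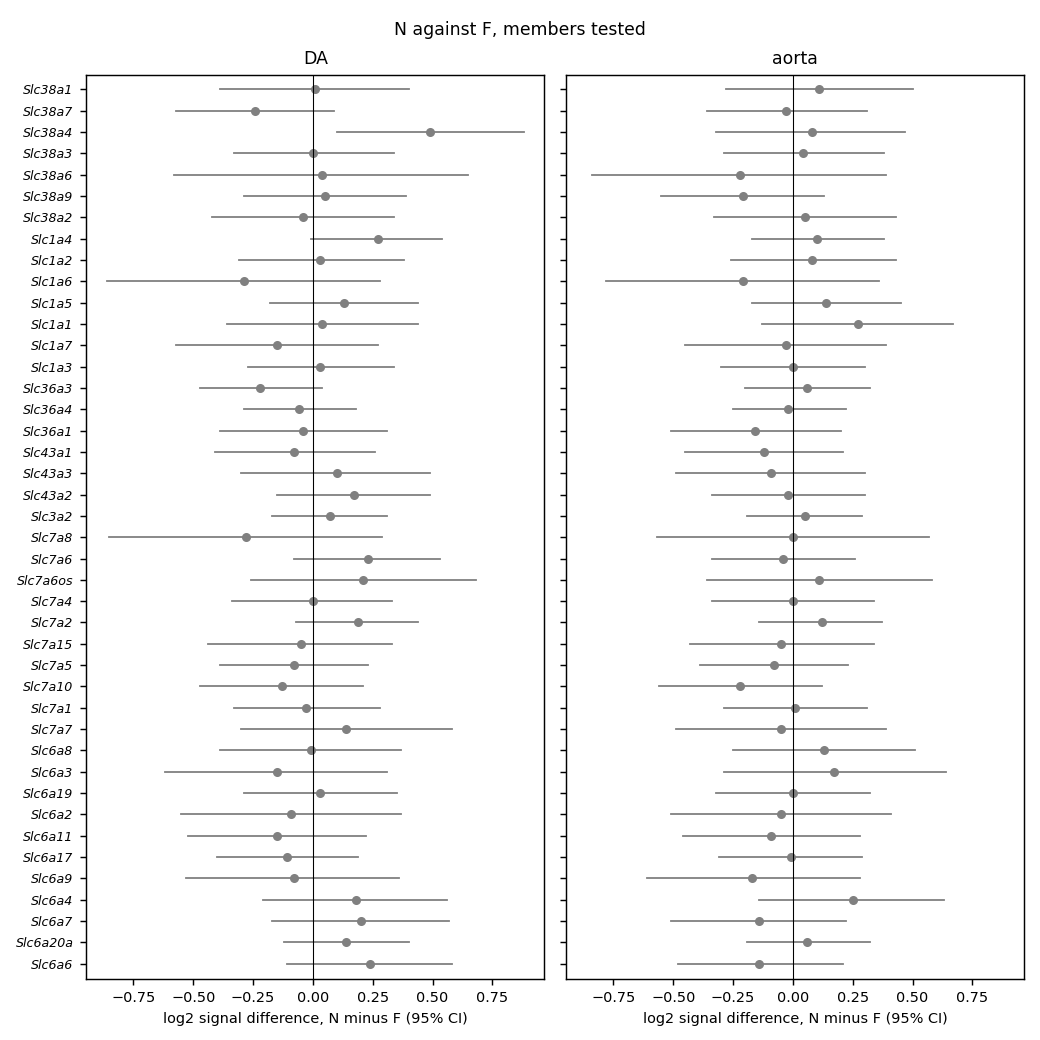
Log2 signal difference of N minus F with 95% confidence intervals (horizontal axis) for the 42 tested members, in the DA (left) and in the aorta (right). 0 members were called in either vessel, and the differences lie between -0.29 and 0.49 in the DA and between -0.22 and 0.27 in the aorta.

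Genes that work beside the carriers were read from lists in the same fit, in which 3.19% of all probe sets were higher and 4.93% lower over both stages. With so few genes in a list, a count of 1 or 2 called genes is not set apart from these shares. Of 16 tested genes of the amino acid response, which ATF4 drives, 3 were higher and 1 lower in the DA over both stages, with a median difference of -0.12. Asns, which makes asparagine, averaged 6.06 in DA F and 5.73 in aorta F, and 6.15 in DA N and 5.52 in aorta N (0.48 over both stages, SE 0.12, adjusted p = 0.0227). Shmt2 and Mthfd2, mitochondrial enzymes of serine and folate metabolism, differed by 0.38 (SE 0.08, adjusted p = 0.00869) and 0.51 (SE 0.14, adjusted p = 0.0354). The stress factor Atf3 was lower, at 11.48 in DA F and 12 in aorta F, and 11.53 in DA N and 11.86 in aorta N (-0.42, SE 0.10, adjusted p = 0.0229). Atf4 itself differed by -0.13 (SE 0.11, adjusted p = 0.653). The called genes of this list thus went both ways, and 0 of the 16 were called at either stage alone.

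Of 19 tested genes of mTORC1 nutrient sensing, the lysosomal pathway that reads amino acid supply, 0 were called in F, in N or over both stages, with a median of -0.06. The smallest p belonged to Flcn, which acts on the Rag GTPases (-0.30, SE 0.10, adjusted p = 0.0964). Of 11 tested enzymes of glutamine, glutamate and proline metabolism, 2 were higher and 0 lower. They were Pycr1, the last enzyme of proline synthesis, at 8.40 in DA F and 7.91 in aorta F, and 8.36 in DA N and 7.88 in aorta N (0.48, SE 0.12, adjusted p = 0.0237), and Gad1, which makes GABA from glutamate (0.46, SE 0.08, adjusted p = 0.00258).

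Of 12 enzymes of arginine and polyamine metabolism, 1 was called. Ass1, which recycles citrulline to arginine, was higher in the DA, at 9.43 in DA F and 8.86 in aorta F, and 9.34 in DA N and 8.76 in aorta N (0.57, SE 0.11, adjusted p = 0.00478). Nos3, the endothelial nitric oxide synthase, averaged 10.87 in DA F and 11.13 in aorta F, and 10.92 in DA N and 11.14 in aorta N, and its difference of -0.24 (SE 0.10) did not pass the test (adjusted p = 0.21).

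Of 11 enzymes of glutathione and branched-chain amino acid metabolism, 2 were higher and 1 lower over both stages. Bcat1, the cytosolic enzyme that transfers the amino group of leucine, isoleucine and valine, averaged 7.38 in DA F and 6.74 in aorta F, and 7.56 in DA N and 6.68 in aorta N (0.76, SE 0.13, adjusted p = 0.00256). Ggt1, which cleaves glutathione outside the cell, differed by 0.70 (SE 0.10, adjusted p = 0.000864), and its relative Ggt5 by -0.49 (SE 0.08, adjusted p = 0.00137). Of 8 other amino acid carriers tested, Slc15a3, a lysosomal carrier of histidine and small peptides, was lower (-0.58, SE 0.11, adjusted p = 0.00577), at 4.54 in DA F and 5.03 in aorta F, and 4.39 in DA N and 5.06 in aorta N. Slc16a10, a carrier of aromatic amino acids, differed by -0.11 and was not called.

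**Figure D5:**
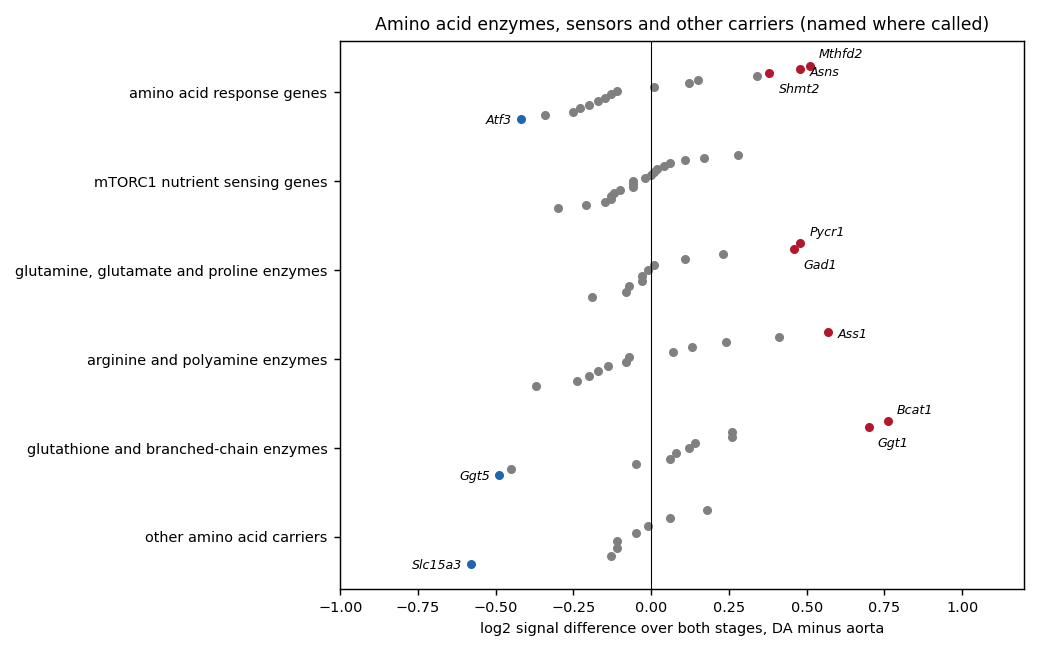
Log2 signal difference of the DA minus the aorta over both stages (horizontal axis) for each tested gene of 6 lists (vertical axis), with called genes in red (higher) or blue (lower) and named. The called genes lie between -0.58 for Slc15a3 and 0.76 for Bcat1, while the 19 mTORC1 genes lie around 0.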

How the data were processed

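The authors hybridized RNA of ECs with CD31 and without CD45 to 12 arrays (Rat Gene 1.0 ST), 3 in each of 4 groups. The deposited values are log2 signals of 26468 probe sets, already summarised and normalized by the authors by steps not given in the sources used here, and no further normalization was applied. The number of arrays limits the precision. Members were the genes with a single symbol in the platform's table that begins with 1 of 7 prefixes. 15307 probe sets carried 1 symbol, 323 several and 10838 none. Probe sets with a mean below that of the lys spike (7778) were not tested, and 18690 were.

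A linear model with a mean for each group was fitted to all 12 arrays (limma 3.58.1, R 4.3.3), and p-values were adjusted by Benjamini-Hochberg over all tested probe sets, with calls at an adjusted p under 0.05. The procedure was tested on simulated data in which each array was drawn independently. That test cannot show how the fit behaves where arrays of the same replicate number deviate together. The members, the gene lists and the motif were chosen with earlier results of these data known, and no list was tested as a set. The genes named were the called members, the highest-signal member of each family, both heavy chains, the 4 members with the smallest p between N and F in each vessel, those next to the spike, and up to 4 genes of each list by smallest p. Others share a role with a called member and were chosen after their values were seen, as were Slc38a5, Slc38a7, Atf4 and Nos3.

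Replicate numbers are shared between groups in the labels. Deviations of arrays from their group means correlated across probe sets with each other. Pairs of replicate 1 arrays had r of 0.539 to 0.82, pairs of replicate 2 arrays 0.102 to 0.301 and pairs of replicate 3 arrays 0.393 to 0.735. Pairs with unequal numbers had r of -0.738 to 0.368, a range that includes the pairs of replicate 2 arrays, and probe sets are not independent replicates. The numbers were therefore taken to pair the arrays, and the replicate number was fitted as a block in an alternative. The main fit leaves this pairing out. Counts, SEs, intervals and figures come from the main fit unless another fit is named. The sources used here do not say what a number marks. The spike was higher on replicate 1 arrays (4.53 to 6.17) than on replicate 3 arrays (3.41 to 3.53).

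The alternatives were no filter on low signal, filters at the spike on all 12 arrays or in at least 1 group, quantile normalization, the replicate block as a fixed or a random term (duplicateCorrelation, statmod 1.5.0), a variance trend with robust fitting, only the arrays compared, the methods' t-test with Benjamini-Hochberg adjustment, a fold of at least 2, and leaving out each array. Promoters, gene names and the order of genes came from RefSeq (GRCr8). The sources used here name no build for the probe sets, so that no positions of probe sets are given.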

Additional observations from a re-analysis of the deposited data

How the results depend on the processing

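No called difference of a named member changed sign under the alternatives run. Of the single-gene results, 1574 stayed on their side of the threshold, 16 were newly past it, 84 were no longer past it and 0 were reversed. The 1574 include results that were not called in the main fit and so could not be lost. The fold of at least 2 was not a setting of this tally. The members called in the DA against the aorta in F numbered 8, and 13 with the replicate block as a random term, 1 by the methods' t-test with Benjamini-Hochberg adjustment, 5 with a fold of at least 2 as well, and 5 to 8 with 1 array left out (5 without DA F replicate 2 or 3). In N they numbered 10, and 4 with only the arrays compared, 0 by the adjusted t-test (13 at an unadjusted p under 0.05), 3 with the fold, and 4 to 10 with 1 array left out. The 4 left without DA N replicate 2 were Slc6a6, Slc7a8, Slc38a1 and Slc43a1, as were the 4 left with only the arrays compared. Without aorta N replicate 2 or 3, 5 were left. Over both stages they numbered 11, and 18 in the paired fit with the replicate block and 18 with the block as a random term (which called Slc3a2 and not Slc1a6), 14 by the adjusted t-test (adding Slc1a2, Slc3a2 and Slc36a4), 12 with no filter on low signal (adding Slc38a5), 12 after quantile normalization (adding Slc1a2), 9 with the filter on all 12 arrays (which leaves out Slc1a3 and Slc6a6), 4 with the fold, and 11 to 12 with 1 array left out. The block called 12 members in F and 11 in N, each including the members called without it, and 0 between N and F, where it changed no call. Between N and F in either vessel, and for the difference of the vessel contrast, 0 members were called under any alternative run. The next-highest probe set of a gene could not be used, since each member has 1. The spread over 3 arrays limits what could be called: the median SE of a member was 0.16 at 1 stage and 0.11 over both stages on the log2 scale.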
